A study of Rattus norvegicus with 6 samples.

Results

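The genes described here are 10 rat genes of the endoplasmic reticulum (ER) stress response and the integrated stress response: Atf3, Atf4, Atf5, Atf6, Ddit3, Chac1, Asns, Hspa5, Derl3 and Ero1b. They were matched by symbol to the array's probes through the RefSeq accession that the files give for each probe, and made up 10 of the 15645 genes that could be named this way. All 10 were found, with 17 probes in all. Atf3, Atf4, Atf5, Asns and Hspa5 had 1 probe each, Ddit3, Derl3 and Ero1b had 2, and Atf6 and Chac1 had 3. All 10 passed the filter on dim probes, and 16 of the 17 probes did.

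Cells that meet misfolded protein in the ER, a shortage of amino acids or oxidative damage respond through a small set of sensors. The kinase PERK (Eif2ak3), like the other eIF2 kinases, slows protein synthesis and favours translation of ATF4, a transcription factor that with its partners switches on Atf3, Ddit3 (CHOP), Chac1, Asns and many genes of amino acid supply. ATF6 and IRE1 (through XBP1) raise the chaperones, oxidases and degradation machinery of the ER, among them Hspa5 (BiP), Ero1b and Derl3. The liver secretes most plasma proteins and leans on both branches. ATF4 and ATF6 are controlled mostly after their mRNA is made, so an mRNA array shows the level of their transcripts and not their activity.

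Liver RNA was measured on 1-colour arrays in 6 male Sprague-Dawley rats, bought at an age of 5 weeks. The vehicle group of 3 rats was given corn oil, and 3 rats were dosed with carbon tetrachloride (CCl4) at 100 mg/kg/day, with 1 array for each animal. The compound is activated in hepatocytes by the ER enzyme CYP2E1, and repeated doses injure and scar the liver. The labels give 9 weeks of dosing in one place and a measurement at 28 days in another, and the files do not settle which holds. The rats carried no transgene or mutation that the labels name.

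The values are log2 signals relative to each array's own 75th percentile, which lay between 582.6 and 675.6 units, and between 61.9% and 67.3% of probes were well above background. Because different probes bind with different strength, a level is compared between animals for 1 probe and never between genes. CCl4 replicate 1 shared the first slide with the 3 vehicle animals, whereas CCl4 replicates 2 and 3 were on another slide with its own scan. All 10 hepatocyte markers read, as a check of the tissue label, were measured. Of these 0 passed the test described below (0 higher and 2 lower at an unadjusted p below 0.05 by limma). These markers ran from Apoa1 (-0.53 ± 0.18), Cyp2e1 (-0.40 ± 0.23) and Apob (-0.40 ± 0.18) to Tf (-0.13 ± 0.10, with 0.04 on its other probe), Ahsg (-0.08 ± 0.11) and Tat (0.19 ± 0.47). Their summed signal was 6600 to 6970 times the 75th percentile in corn oil and 5460 to 5950 times in CCl4. The median change of these markers was -0.225, but -0.044 under quantile normalization, so the size of the fall depended on the scaling. In whole liver, fewer cells of a type and less RNA per cell cannot be told apart.

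Promoter sequences are shown first, because 3 of the genes share an element through which ATF6 is known to act, while their changes ran from -0.05 (Hspa5) to 2.86 (Derl3) on the log2 scale. RefSeq promoters of the GRCr8 build were at hand for 8 of the 10 genes, all but Atf3 and Atf6. The 250 bases before each start were searched on both strands. The ER stress response element (ERSE), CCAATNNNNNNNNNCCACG, was found in Hspa5, Derl3 and Ero1b, and in 21 of all 27457 promoters searched (0.0765%). It also stood before Calr, Canx, Creld2, Dnajc3, Hsp90b1 and Xbp1, which are other genes of the ER response. In the stretches that follow, written 5′ to 3′ on the strand of the gene, capitals mark the fixed letters of the element, which lies on the reverse strand in Derl3 and Ero1b. The stretches are Derl3 at chr20:12766566-12766665 on the minus strand, Hspa5 at chr3:38452916-38453015 and Ero1b at chr17:92941432-92941531, both on the plus strand.
Derl3: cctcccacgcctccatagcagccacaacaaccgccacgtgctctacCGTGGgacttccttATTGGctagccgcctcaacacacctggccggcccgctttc
Hspa5: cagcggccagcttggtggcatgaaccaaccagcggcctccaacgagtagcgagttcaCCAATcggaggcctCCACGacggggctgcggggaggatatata
Ero1b: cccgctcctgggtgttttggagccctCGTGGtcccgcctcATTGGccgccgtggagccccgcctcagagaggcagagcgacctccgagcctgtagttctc

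The letters TTGCATCA, the core of the composite element bound by ATF4 with a C/EBP partner, stood before Chac1 alone among the 8 genes, and in 180 of the 27457 promoters (0.656%). In the wider pathway the same letters stood before Fgf21, Nupr1, Herpud1, Pycr1, Jdp2, Ppp1r15b, Aars1, Iars1, Mars1, Nars1 and Tars1. Here the capitals mark that core, in Chac1 at chr3:126795931-126796030 on the plus strand. Neither TGACGTCA, the cyclic AMP response element (1.7% of promoters), nor TGACGTGG, the core of an element bound by XBP1 and ATF6 (0.55%), was found in the searched window of the 8 genes. A match is only a run of letters and does not show that a factor binds there.
Chac1: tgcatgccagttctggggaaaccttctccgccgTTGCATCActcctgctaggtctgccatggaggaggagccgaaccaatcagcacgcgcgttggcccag

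Repeated exposure to CCl4 was compared with vehicle for each of the 10 genes. Derl3 rose, and the other 9 genes did not pass the threshold, an adjusted p below 0.05 over all 11939 genes tested. Among those 9, Atf3, Ddit3 and Ero1b lay higher in every CCl4 animal than in any corn oil animal. Atf5 lay lower in every CCl4 animal, as did Chac1 on its brightest probe, while the groups overlapped on its other probes. Atf4, Atf6, Asns and Hspa5 overlapped between the groups. The count of 1 gene higher of 10 stands against 0.561% of all genes tested, and the count of 0 lower against 0.0754%, by limma with Benjamini-Hochberg adjustment. At an unadjusted p below 0.05, limma gave 5 of the 10 higher (Derl3, Ero1b, Ddit3, Atf3 and Atf6), where the share over all genes was 9.95%. In the same way 2 were lower (Chac1 and Atf5), against 9.77% of all genes. The groups did not overlap with CCl4 above for 4 of the 10 (11.5% of all genes) and with CCl4 below for 2 (15.9%). The median change of the 10 genes was 0.45, beside -0.05 over all genes tested. Over the 10 alternatives tried for this median it stayed positive, between 0.164 (corn oil replicate 1 left out) and 0.657. The 10 genes and the lists below were picked with earlier results of these data known. Their counts and medians, set beside all genes or all probes, are therefore a description and not independent support.

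**Figure D1:**
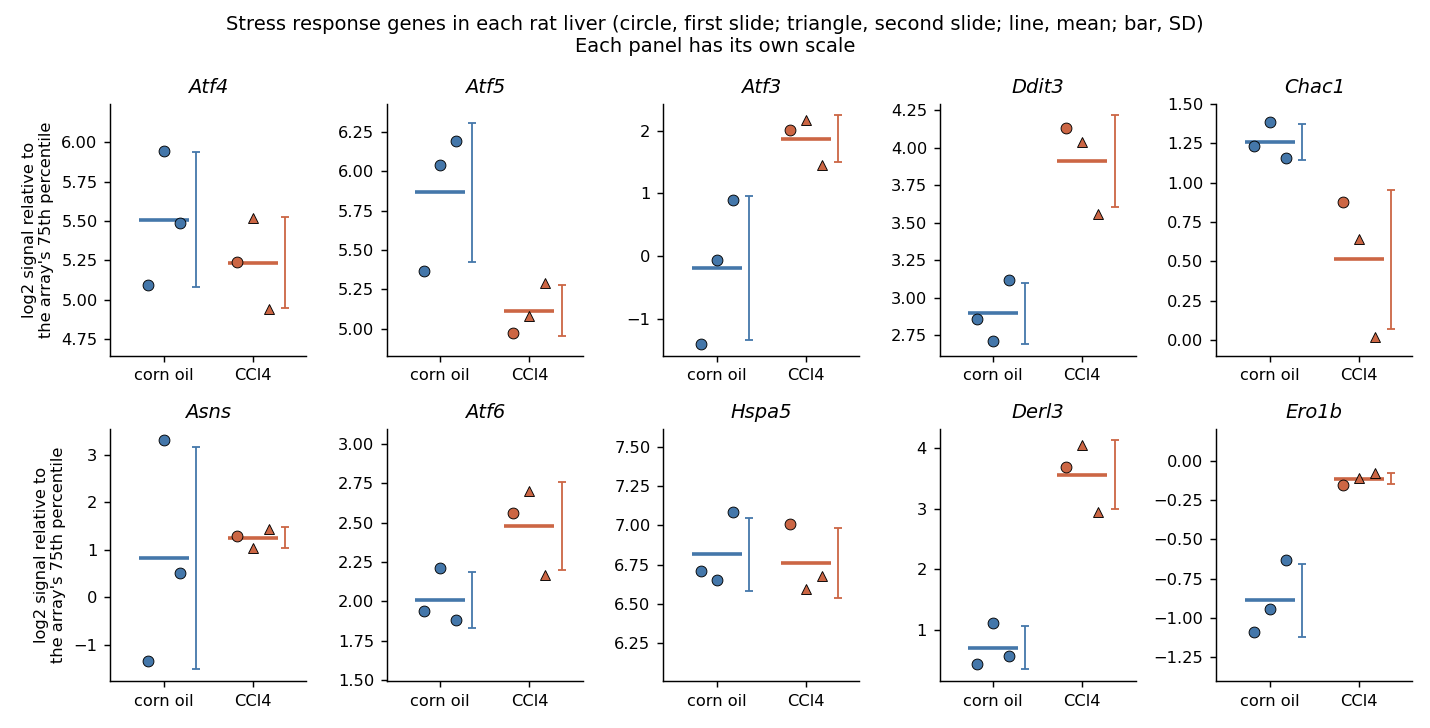
Signal of each of the 10 genes in every animal, on its brightest probe, as log2 relative to the array's 75th percentile, with the group mean (line) and SD (bar, n = 3). The 3 CCl4 animals lie between 2.95 and 4.06 for Derl3, above all corn oil animals (0.44 to 1.11), whereas Asns runs from -1.35 to 3.30 within corn oil.

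Atf4 encodes the central transcription factor of the integrated stress response. Its probe read 5.09, 5.95 and 5.49 in corn oil replicates 1, 2 and 3 and 5.24, 5.52 and 4.94 in CCl4 replicates 1, 2 and 3. The groups overlapped, and corn oil replicate 2 was the highest of the 6 animals. The change was -0.27 ± 0.25 (SE, n = 3 per group; adjusted p = 0.570), with a 95% interval of -0.89 to 0.34.

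Atf5 encodes a related factor that is itself translated under stress and serves the mitochondrial stress response. Its probe read 5.36, 6.04 and 6.19 in corn oil and 4.97, 5.08 and 5.29 in CCl4. All CCl4 animals lay below all corn oil animals, though corn oil replicate 1 was only just above the highest of them. The change was -0.75 ± 0.23 (adjusted p = 0.167), and it was -0.59 without corn oil replicate 3.

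Atf3 encodes a factor that many stresses induce within hours and that acts downstream of ATF4. It read -1.41, -0.07 and 0.90 in corn oil and 2.01, 2.17 and 1.45 in CCl4. The CCl4 animals were the 3 highest, but the corn oil animals alone spread over 2.30 log2 units, a 4.94-fold range. Its SD in corn oil, 1.16, was larger than that of 98.5% of all genes tested. The change was 4.20-fold (2.07 ± 0.56; adjusted p = 0.132), and the fitted change fell from 2.07 to 1.46 without corn oil replicate 1. Leaving out that animal moved the ratio by over 1.5 times, and the adjusted p was then 0.195.

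Ddit3 encodes CHOP, the factor tied to cell death under lasting ER stress. Its brighter probe read 2.86, 2.71 and 3.11 in corn oil and 4.13, 4.04 and 3.56 in CCl4. Its other probe, designed on a different transcript record, read -0.27, -0.14 and 0.35 in corn oil and 1.40, 1.28 and 0.73 in CCl4. On both probes every CCl4 animal lay above every corn oil animal, with CCl4 replicate 3 the lowest of the treated animals. The change was 2.02-fold on the first (1.02 ± 0.19; adjusted p = 0.0725, 95% interval 0.56 to 1.48) and 2.22-fold on the second (1.15 ± 0.24; adjusted p = 0.116 over all probes). Ddit3 passed without CCl4 replicate 3 (1.19, adjusted p = 0.0387). Over all alternatives tried its adjusted p ran from 0.0387 to 0.233.

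Chac1 encodes an enzyme that breaks down glutathione and is a target of ATF4 and CHOP. Its brightest probe read 1.23, 1.38 and 1.16 in corn oil and 0.88, 0.64 and 0.02 in CCl4. All CCl4 animals were lower, CCl4 replicate 3 most of all. The change was -0.74 ± 0.23 (adjusted p = 0.162). A second probe read -2.08, 0.80 and -0.10 in corn oil and -2.04, -1.94 and -1.98 in CCl4. On it corn oil replicate 1 sat at the level of the CCl4 animals, so that the groups overlapped, and the change was -1.52 ± 0.68 (adjusted p = 0.332 over all probes). The third probe was dim on all CCl4 arrays (not well above background), was well above it on 2 of 3 corn oil arrays, and was not tested. It read -6.71, -3.27 and -4.02 in corn oil and -6.36, -5.18 and -5.43 in CCl4. The groups overlapped, with corn oil replicate 1 the lowest of all animals. Its corn oil mean of -4.66 lay 1.42-fold above the background floor of the CCl4 arrays. That mean includes a dim corn oil array, so the ratio is not a firm bound. The means of the 3 probes thus shared a direction, the third untested, but the probes did not share the order of the corn oil animals. Within the first slide, where CCl4 replicate 1 alone stands for treatment, the change of the brightest probe was -0.38.

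Asns encodes asparagine synthetase, the amino acid enzyme most often used as a readout of ATF4. Its probe read -1.35, 3.30 and 0.51 in corn oil and 1.30, 1.03 and 1.45 in CCl4. The vehicle animals span a 25.0-fold range that contains all 3 treated animals, which lie within a 1.33-fold range of each other. The SD was 2.34 in corn oil, larger than that of 99.7% of genes tested, and 0.21 in CCl4. The change was 0.44 ± 1.08 (adjusted p = 0.851), with a 95% interval of -2.17 to 3.05, which is wider than that of the other 9 genes. Leaving out corn oil replicate 1 turned it to -0.65, and leaving out corn oil replicate 2 raised the estimate to 1.68 (adjusted p = 0.210).

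The spread of Asns among vehicle animals was shared by other genes of amino acid supply, which were singled out after their values were seen. Phgdh, the first enzyme of serine synthesis, read 0.18, 5.92 and 2.16 in corn oil, a 53.4-fold range, and 4.27, 4.08 and 4.17 in CCl4, a 1.14-fold range. Psat1, the next enzyme of that pathway, read -2.19, 2.52 and 0.10 in corn oil and 0.13, -0.18 and 0.40 in CCl4. Both enzymes, like Asns, were lowest in corn oil replicate 1 and highest in corn oil replicate 2. Mthfd2, a mitochondrial folate enzyme, read -2.32, 1.11 and -1.45 in corn oil and -0.51, 0.14 and -0.34 in CCl4. Fgf21, a hormone that the liver releases under fasting and amino acid shortage, read 0.13, 4.05 and 2.59 in corn oil and 0.94, 0.87 and 1.1 in CCl4. Trib3 (-0.24, 2.29 and 1.42 in corn oil) and Nupr1 (3.27, 5.41 and 5.06), both targets of ATF4, kept the same order of the vehicle animals.

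Of the 29 ATF4 and CHOP target genes tested other than the 10 genes, 7 spanned more than 2 log2 units across the corn oil animals (24.1%), beside 1.8% of all genes tested. These 7 were the 6 just named and Vldlr, a lipoprotein receptor, which was dim on 2 of the 3 corn oil arrays. Across the CCl4 animals 0 of the 29 did, beside 1.35% of all genes. The order with corn oil replicate 1 lowest and replicate 2 highest held in 15 of the 29, beside 18% of all genes tested. This order was picked after the values were seen, and the 15 include the 7 wide genes. The count is therefore a description and not independent support. It held in 12 of 20 aminoacyl-tRNA synthetases (60%), the enzymes that load amino acids onto tRNA, whose median range in corn oil was 0.33. Among the 24 ER chaperones and foldases other than the 10 genes it held in 5 (20.8%), and among the 19 genes of ER translocation and export in 7 (36.8%). The order also held in 6 of 9 markers of dividing cells (66.7%) and in 4 of 10 stellate cell and myofibroblast markers (40%), so it was not limited to genes of amino acid supply. The share of probes well above background was 67.3% in corn oil replicate 1 and 66.3% in replicate 2, and all 3 arrays shared a slide and a scan. Why these animals differ was not tested.

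**Figure D2:**
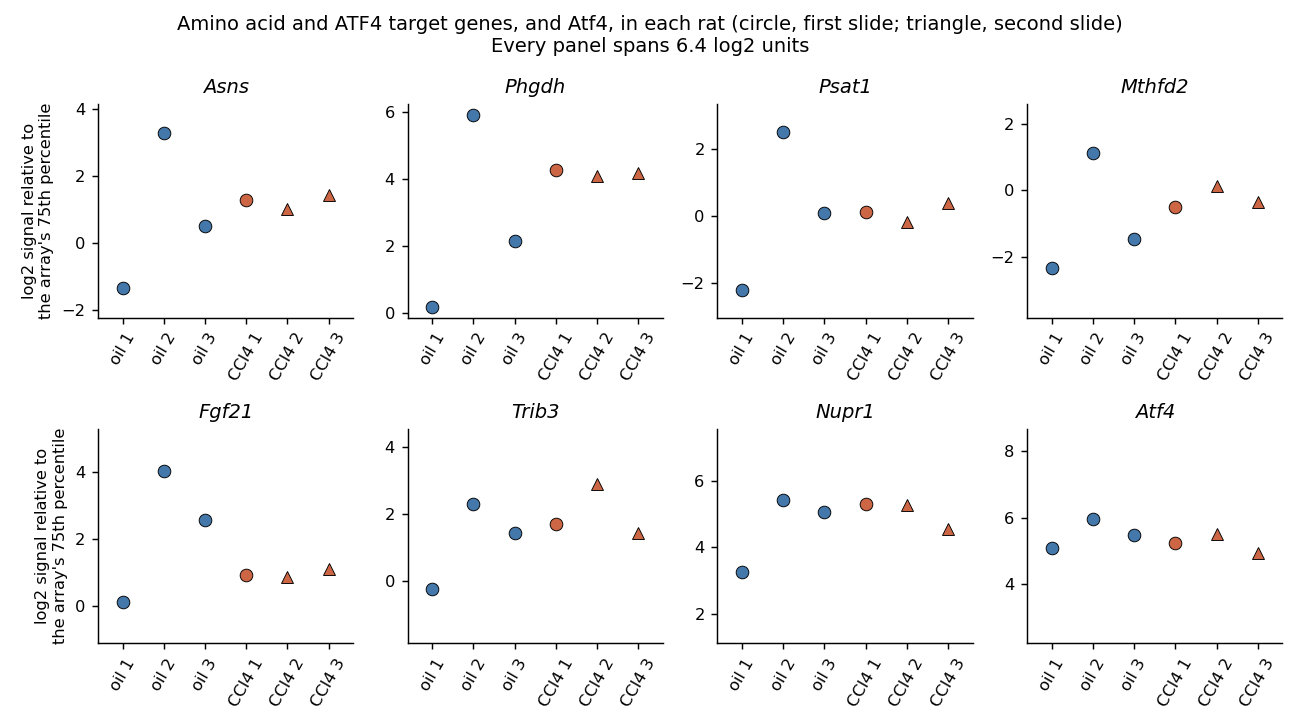
Signal of Asns, 6 other ATF4 target genes and Atf4 in each of the 6 animals, as log2 relative to the array's 75th percentile, every panel spanning the same range. In the 7 target genes corn oil replicate 1 is the lowest and replicate 2 the highest of the vehicle animals, and Asns, Phgdh and Fgf21 differ little between the CCl4 animals.

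Atf6 encodes the ER membrane sensor that is cut in the Golgi to release a transcription factor. Its brightest tested probe read 1.94, 2.21 and 1.88 in corn oil and 2.56, 2.70 and 2.17 in CCl4. CCl4 replicate 3 lay just below the highest corn oil animal, so the groups overlapped, and the change was 0.47 ± 0.17 (adjusted p = 0.223). The other probes gave 0.67 ± 0.39 and 0.34 ± 0.16 (adjusted p = 0.443 and 0.353 over all probes), the same direction on all 3.

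Hspa5 encodes BiP, the main ER chaperone and the standard marker of the ATF6 branch. It read 6.71, 6.65 and 7.08 in corn oil and 7.01, 6.60 and 6.68 in CCl4. The groups overlapped throughout, with corn oil replicate 3 and CCl4 replicate 1 the highest. The change was -0.05 ± 0.17 (adjusted p = 0.883). Its 95% interval, -0.47 to 0.36, does not contain the fitted change of Derl3 or Ero1b, the other genes with an ERSE, though the differences between genes were not tested. The sign turned on the first slide alone (0.195), when corn oil replicate 3 (0.079) or CCl4 replicate 2 (0.028) was left out, and under normexp background correction (0.004).

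Derl3 encodes derlin-3, a membrane protein of ER-associated degradation, the route by which misfolded proteins leave the ER for the proteasome. The brighter of its 2 probes read 0.44, 1.11 and 0.56 in corn oil and 3.69, 4.06 and 2.95 in CCl4. The other read -3.01, -2.36 and -2.58 in corn oil and 0.18, 0.74 and -0.33 in CCl4. On both probes the groups stood far apart, CCl4 replicate 2 was the highest animal and CCl4 replicate 3 the lowest of the treated ones. Derl3 rose 7.27-fold on the first probe (2.86 ± 0.32; adjusted p = 0.0252, 95% interval 2.09 to 3.63) and 7.18-fold on the second (2.84 ± 0.30; adjusted p = 0.0309 over all probes). Of the 16 probes tested 2 were called higher, both of Derl3, beside 0.287% of the 40478 probes tested, and 0 lower, beside 0.0544%. At an unadjusted p below 0.05, limma gave 7 of the 16 probes higher, beside 7.88% of all probes tested: both of Derl3, both of Ddit3, that of Atf3 and the brightest of Atf6 and of Ero1b. In the same way 2 were lower, those of Atf5 and the brightest of Chac1, beside 8.14%.

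The size of the Derl3 change held when single arrays were left out, while its call did not always hold. Leaving out 1 array also moved the count over all genes, from 76 to 2 without CCl4 replicate 2 and to 241 without CCl4 replicate 3. Whether particular animals or the smaller number of arrays moved the call was not tested. Leaving out corn oil replicate 2 (3.07, adjusted p = 0.0490) or CCl4 replicate 3 (3.17, adjusted p = 0.0133) kept the gene past the threshold. Of these only the absence of CCl4 replicate 3 kept the calls over all probes, where both Derl3 probes passed. Neither probe passed when any other array was left out, with no filter on dim probes, with slide as a fixed block or on the first slide alone. Derl3 did not pass without corn oil replicate 1 (2.73, adjusted p = 0.0916), corn oil replicate 3 (2.79, adjusted p = 0.0890), CCl4 replicate 1 (2.80, adjusted p = 0.106) or CCl4 replicate 2 (2.62, adjusted p = 0.134). A fixed block for slide gave 2.98 (adjusted p = 0.195). The 4 arrays of the first slide alone must give the same 2.98, because the second slide holds no corn oil array. Both settings thus rest on CCl4 replicate 1 alone against the 3 corn oil animals. Over all alternatives the change was 2.62 to 3.17 and the adjusted p 0.0133 to 0.195.

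The genes whose levels followed Derl3 most closely over the 6 arrays were Cd44, a hyaluronan receptor (Pearson's r = 0.997, change 2.21), the chemokine gene Cxcl16 (r = 0.997, change 1.63) and the germ cell gene Tex15 (r = 0.996, change 3.95). The 6 arrays fall into their 2 groups for each of these genes, so the likeness rests largely on the difference between groups, and it has no test.

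Derl3 is also a gene of antibody-secreting cells and Ero1b one of the pancreas, so markers of other cells were read beside them. Of 12 B and plasma cell markers 8 were on the array, with a summed level of 1.22 to 1.34 times the 75th percentile in corn oil and 1.09 to 1.21 in CCl4. Of the 7 tested, 0 passed, and Mzb1, an ER protein of plasma cells, was the lowest at -0.70 ± 0.17 (adjusted p = 0.110), then Tnfrsf17 (-0.50 ± 0.31) and Cd79b (-0.38 ± 0.20), with Cd27 (0.82 ± 0.37) and Prdm1 (0.60 ± 0.20) at the upper end. At an unadjusted p below 0.05, 1 marker was higher and 2 were lower by limma, and Irf4 was not well above background on any array. Of 10 pancreatic acinar markers Cpa1, Pnlip, Prss1 and Ptf1a were not well above background on any array, and the summed level was 0.728 to 0.966 in corn oil and 0.666 to 0.889 in CCl4. Of the 6 acinar markers tested 0 passed (1 higher and 0 lower at an unadjusted p below 0.05 by limma), from Cpb1 (-0.80 ± 1.1), Cel (-0.61 ± 0.38) and Cela2a (-0.04 ± 0.31) to Ctrb1 (-0.03 ± 0.12), Amy2a3 (0.12 ± 0.19) and Cela1 (1.14 ± 0.31). Cela1, the marker counted as higher, was dim on 2 of 3 corn oil arrays and 1 of 3 CCl4 arrays, so that its value is mostly background, and Cpb1, Cel and Cela2a were each dim on 1 of 3 CCl4 arrays. The summed level of neither list was higher in CCl4 than in corn oil.

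All 14 macrophage markers were measured, with a summed level of 127 to 150 in corn oil and 160 to 187 in CCl4. Of these 3 rose, beside 0.561% of all genes: Trem2 (4.33 ± 0.32), Gpnmb (3.04 ± 0.42) and Lgals3 (2.36 ± 0.15). Another 5 of the 14 had negative changes that did not pass, the lowest being Vsig4 (-0.50 ± 0.21), Adgre1 (-0.43 ± 0.24) and Cd163 (-0.42 ± 0.23). Markers of dividing cells summed to 3.08 to 4.18 in corn oil and 10.4 to 13.8 in CCl4, and 5 of 9 rose, beside the same 0.561%. These were Rrm2 (2.38 ± 0.18), Ube2c (1.56 ± 0.19), Ccna2 (1.53 ± 0.14), Aurka (0.96 ± 0.11) and Birc5 (0.93 ± 0.13). Ccnb1 (2.17 ± 0.49), Cdk1 (1.82 ± 0.36) and Mki67 (0.81 ± 0.17) did not pass. Stellate cell and myofibroblast markers summed to 42.2 to 50.5 in corn oil and 56.1 to 79.7 in CCl4, with 0 of 10 past the threshold and 4 higher and 0 lower at an unadjusted p below 0.05 by limma. They ran from Acta2 (-0.24 ± 0.16), Lrat (-0.02 ± 0.17, with 0.21 on its other probe) and Tagln (0.00 ± 0.14) to Col3a1 (0.73 ± 0.20), Des (0.85 ± 0.23) and Col1a2 (0.99 ± 0.18). Neutrophil markers overlapped, at 2.76 to 6.0 in corn oil and 1.55 to 4.44 in CCl4, with Camp at -0.93 ± 0.40, S100a8 at -0.58 ± 0.49, S100a9 at -0.40 ± 0.46 and Csf3r at 0.18 ± 0.29. The part of these cells in the values of Derl3, Ddit3 or Atf3 was not tested.

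Ero1b encodes an oxidase that renews the disulfide-forming enzymes of the ER. Its brighter probe read -1.09, -0.94 and -0.63 in corn oil and -0.15, -0.11 and -0.08 in CCl4. Every CCl4 animal was higher, and the treated animals lay within 0.07 of each other. Their SD, 0.036, was smaller than in all but 3.4% of genes tested. The change was 1.71-fold (0.77 ± 0.14; adjusted p = 0.0697, 95% interval 0.44 to 1.11). The second probe read -1.45, -0.90 and -0.88 in corn oil and -0.67, -0.37 and -0.82 in CCl4, again with no overlap, and changed by 0.45 ± 0.21 (adjusted p = 0.342 over all probes). Under normexp background correction Ero1b passed (0.65, adjusted p = 0.0445), and over all alternatives its adjusted p was 0.0445 to 0.321.

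**Figure D3:**
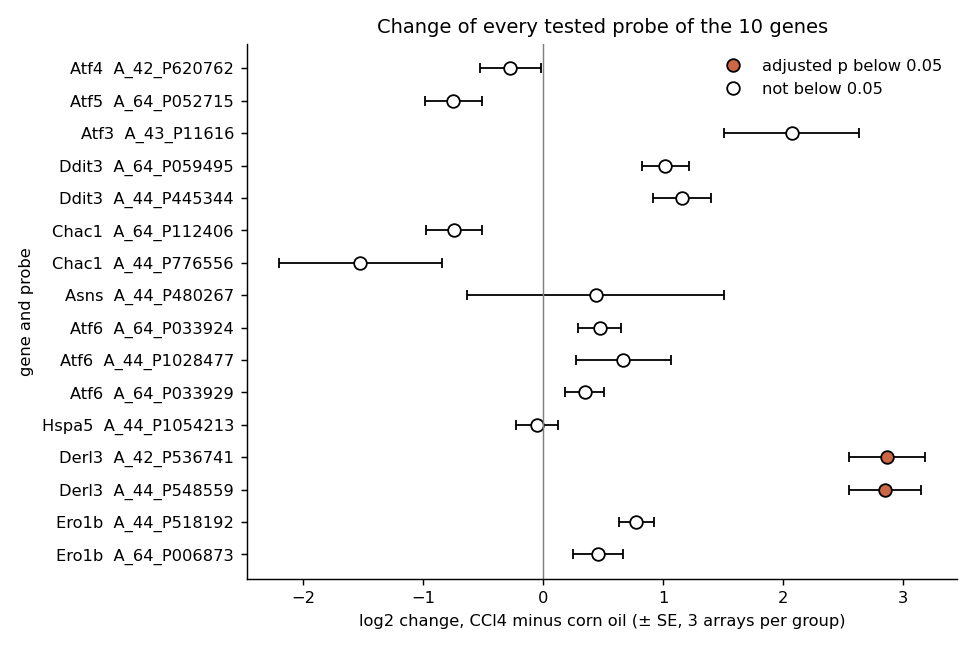
Log2 change (CCl4 minus corn oil, ± SE, 3 arrays per group) of the 16 tested probes, grouped by gene. Both Derl3 probes lie near 2.85 and are filled, which marks an adjusted p below 0.05 over all probes, while Asns has the widest error bar, 1.07.

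Near relatives of the 10 genes were read from a list of paralogs. Derl1, the relative of Derl3 expressed in most tissues, changed by -0.02 ± 0.10 (adjusted p = 0.943) on the brighter of its probes and by 0.28 on the other. Ero1a, the relative of Ero1b, was at 0.14 ± 0.10 (adjusted p = 0.443), and Chac2, a second glutathione-degrading enzyme, at -0.28 ± 0.14 (adjusted p = 0.322). The cytosolic chaperone gene Hspa8, related to Hspa5, was at -0.44 ± 0.11 (adjusted p = 0.108), Hspa14 at 0.15 ± 0.12 and Hspa9 at 0.18 ± 0.18. Of 8 relatives tested 0 passed, with 1 lower and 0 higher at an unadjusted p below 0.05 by limma. Whether Derl3 differed from Derl1 or Ero1b from Ero1a was not tested.

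The wider pathway was read from 7 lists ordered by role, which hold 128 tested genes other than the 10. Of these 128 genes 0 passed over all genes by limma, while 18 were higher and 3 lower at an unadjusted p below 0.05. Over all genes tested 9.95% were higher and 9.77% lower in this way, and the counts of each list below stand beside the same shares. The median change of the 128 genes was 0.06.

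Among the sensors and transcription factors of the ER response, 10 genes were tested beside Atf6, with a median of -0.12 and 0 past the threshold (0 higher and 1 lower at an unadjusted p below 0.05 by limma). With Atf6 included the median was -0.10. Its sign turned under normexp (0.011) and when corn oil replicate 2 (0.013) or CCl4 replicate 1 (0.002) was left out. Xbp1, the factor spliced by IRE1, read 4.25, 5.20 and 5.17 in corn oil and 3.65, 4.44 and 4.58 in CCl4 (-0.65 ± 0.35, adjusted p = 0.346). Creb3l3, a liver factor cut like ATF6, read 7.77, 7.73 and 7.87 in corn oil and 7.34, 7.33 and 7.21 in CCl4, below corn oil in all animals (-0.50 ± 0.10, adjusted p = 0.0766). Creb3l2 was at -0.27 ± 0.12 on its brighter probe and at 0.28 on the other. At the upper end stood Atf6, the kinase gene Eif2ak3 (0.20 ± 0.18) and Nfe2l1 (0.13 ± 0.13).

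Among the 14 kinases, phosphatase subunits and exchange factors that act on eIF2, the median was 0.005 (-0.025 under median scaling) and 0 passed, with 1 higher and 0 lower at an unadjusted p below 0.05 by limma. Ppp1r15a (GADD34), which brings the phosphatase that ends the response, read 1.05, 1.51 and 1.93 in corn oil and 2.67, 2.14 and 1.59 in CCl4 (0.64 ± 0.33, adjusted p = 0.335). Dnajc3, an inhibitor of the kinases and an ER co-chaperone, was at 0.39 ± 0.16 (adjusted p = 0.246) and Eif2b2 at 0.28 ± 0.16. The lowest were Eif2ak2 (-0.24 ± 0.18, with 0.16 on its other probe), Eif2b4 (-0.23 ± 0.14) and Eif2s1 (-0.20 ± 0.12).

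Among the 29 other target genes of ATF4 and CHOP the median was 0.13 and 0 passed, with 3 higher and 0 lower at an unadjusted p below 0.05 by limma. Vldlr was at 2.27 ± 0.62 (adjusted p = 0.133), a size that rests on background signal, since 2 of its 3 corn oil arrays were dim. Phgdh was at 1.42 ± 1.34 (adjusted p = 0.581). With the members of the list included its median was 0.19, which turned to -0.05 when corn oil replicate 1 was left out and became 0.44 when corn oil replicate 2 was. Ndrg1, a gene also induced by hypoxia, read -2.46, -2.73 and -2.16 in corn oil and -1.12, -1.26 and -1.59 in CCl4 (1.13 ± 0.19, adjusted p = 0.0648), with no overlap. Ndrg1 was named after its values were seen. The lowest gene was Fgf21 (-1.29 ± 0.91, adjusted p = 0.465).

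Over all genes tested 42.8% of changes were positive. The 20 aminoacyl-tRNA synthetase genes, which ATF4 also controls in part, had a median of -0.13 with 16 of 20 changes negative. Of these 0 passed by limma, with 1 higher and 2 lower at an unadjusted p below 0.05. Cars1 read 1.13, 2.06 and 1.86 in corn oil and 0.97, 0.83 and 1.05 in CCl4 (-0.74 ± 0.25, adjusted p = 0.194). Tars1 was at -0.47 ± 0.13 (adjusted p = 0.128) and Iars1 at -0.35 ± 0.17. Wars1, which interferon also induces, was at 0.39 ± 0.14 (adjusted p = 0.209), followed by Lars1 (0.15 ± 0.17) and Farsb (0.13 ± 0.15, with -0.05 on another probe).

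Among 24 ER chaperones and foldases other than Hspa5 and Ero1b the median was 0.17 and 0 passed, with 4 higher and 0 lower at an unadjusted p below 0.05 by limma. Fkbp11, a prolyl isomerase of secretory cells, read 1.92, 2.72 and 2.31 in corn oil and 3.73, 4.11 and 2.97 in CCl4, so that all treated animals were higher (1.29 ± 0.34, adjusted p = 0.121). P4hb, the classic protein disulfide isomerase and also a collagen-modifying subunit, was at 0.50 ± 0.11 (adjusted p = 0.0996), while Ero1b, in the same list, is given above. The lowest were Pdia5 (-0.41 ± 0.33), Pdia4 (-0.31 ± 0.23) and Cdnf (-0.25 ± 0.12). The other pathway genes with an ERSE, read together after their values were seen, ran from -0.65 (Xbp1) through -0.09 (Hsp90b1), -0.08 (Creld2), -0.06 (Calr) and 0.23 (Canx) to 0.39 (Dnajc3), and 0 of the 6 passed. The other probe of Hsp90b1 gave 0.05.

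Among 16 genes of ER-associated degradation other than Derl3 the median was -0.07 and 0 passed, with 3 higher and 0 lower at an unadjusted p below 0.05 by limma. With Derl3 included the median was -0.02, and 0.04 under quantile normalization. Edem2, which trims sugars from misfolded glycoproteins, read 0.36, 0.47 and 0.38 in corn oil and 1.25, 1.20 and 0.94 in CCl4 (0.72 ± 0.12, adjusted p = 0.0615). Edem3, of the same family, was at 0.46 ± 0.12 (adjusted p = 0.117). Herpud1, a scaffold of the degradation complex and a common ER stress marker, read 5.56, 5.98 and 5.87 in corn oil and 5.68, 4.63 and 5.30 in CCl4 (-0.60 ± 0.28, adjusted p = 0.288). Sel1l was at -0.33 ± 0.21 and Nploc4 at -0.21 ± 0.14, with 0.06 on its other probe.

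Genes of ER translocation and export had a median of 0.22, with 15 of 19 changes positive (42.8% over all genes tested). In 10 of 19 all CCl4 animals lay above all corn oil animals (11.5% over all genes). None of the 19 passed, with 7 higher and 0 lower at an unadjusted p below 0.05 by limma, beside 9.95% and 9.77% of all genes. All 3 subunits of the Sec61 channel, the pore through which secretory proteins enter the ER, were in this group, of which Sec61b and Sec61g were named after their values were seen. Sec61b read 5.07, 5.18 and 5.26 in corn oil and 5.86, 5.85 and 5.63 in CCl4 (0.61 ± 0.11, adjusted p = 0.0725). Sec61a1 was at 0.63 ± 0.13 (adjusted p = 0.0828) and Sec61g at 0.63 ± 0.13 (adjusted p = 0.0870). Kdelr3, a receptor that returns escaped ER proteins, was at 1.02 ± 0.24 (adjusted p = 0.0996), and Sec11c, a signal peptidase subunit, at 0.66 ± 0.20 (adjusted p = 0.157). The relatives Kdelr1 (-0.07 ± 0.13) and Kdelr2 (-0.05 ± 0.10) and the translocation helper Sec63 (-0.03 ± 0.13) were the lowest, and a second probe of Sec63 gave 0.58.

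Other factors of the same families were read beside the 10 genes. Of 14 further ATF, CREB and C/EBP genes tested 0 passed, with 1 higher and 1 lower at an unadjusted p below 0.05 by limma, and a median of -0.04. Batf, a factor of immune cells, was at 0.73 ± 0.14 (adjusted p = 0.0725), Jdp2, a repressor that pairs with ATF3, at 0.65 ± 0.28 and Cebpd at 0.45 ± 0.32. Cebpa, a factor of mature hepatocytes, was at -0.47 ± 0.16 (adjusted p = 0.192), Cebpb at -0.34 ± 0.24 and Crebzf at -0.29 ± 0.15.

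Atf3 is also an immediate-early gene, so that class was read beside it. Of 17 tested 0 passed, with 2 higher and 0 lower at an unadjusted p below 0.05 by limma, and the median was 0.22. Over 10 alternatives this median ran from 0.015 (corn oil replicate 2 left out) to 0.279. Egr2, another rapidly induced factor, read -5.37, -4.84 and -7.50 in corn oil and -3.39, -2.99 and -3.16 in CCl4 (2.73 ± 0.66, adjusted p = 0.106), and it was dim on 1 of the 3 corn oil arrays. Klf6 was at 0.75 ± 0.31 (adjusted p = 0.255) and Klf4 at 0.60 ± 0.19 (adjusted p = 0.174). Egr1 (-0.84 ± 0.51), Zfp36 (-0.72 ± 0.54) and Dusp1 (-0.43 ± 0.34) were the lowest.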

How the data were processed

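Per the labels' protocols, Cy3-labelled RNA from 0.2 µg of liver total RNA per rat was hybridised to 1-colour Agilent arrays. The deposited files hold intensity per spot from Agilent Feature Extraction (version 10.7, as the submitters' processing notes name it), with background subtracted and no scaling between arrays. Other deposited columns are flags (well above background, saturated, outlier). The authors' deposited value table holds a ratio, the processed signal divided by about the array's 75th percentile (divisors of 583.3 to 676.5 found from the values), with column medians of 0.103 to 0.11.

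From 61537 probes, after leaving out 1439 control spots, 28206 (45.8%) matched 1 symbol through RefSeq accessions in a GRCr8 gene table, and 26 with an outlier flag were left out. The array design names rn4, so no probe coordinates are given. Values are log2 of the processed signal minus the 75th percentile of that array. The filter kept probes well above background on 3 or more of the 6 arrays, and the brightest kept probe stood for its gene (11939 genes). All 40478 such probes were also tested without choosing between them. Groups were compared with limma 3.58.1 (lmFit, eBayes, two-sided) in R 4.3.3, adjusted by Benjamini-Hochberg over all features tested, at 0.05. The fit was tested on simulated data. For a probe dim on all arrays of a group, the other group's mean was set against a floor. On each array of the dim group the floor was the higher of the probe's own signal and the lowest signal well above background. Python 3.11.15, numpy 2.4.6, pandas 2.3.3, matplotlib 3.10.9 and statmod 1.5.0 were also used.

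The members, lists and tests were chosen with earlier results of these data known. Named are all 10 genes, of each list the genes past the threshold and the 3 highest and 3 lowest changes, and the 3 genes most correlated with Derl3. Genes outside this rule are said to be chosen after their values were seen. The values of 1 marker gene that the rule names are not reported here. The labels call replicates separate animals, and 3 arrays per group limit precision. Alternatives covered normalization, background correction, filters, probe choice, variance models, slide, pairing and single arrays left out in turn. Median spot and background signals entered normexp.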

Additional observations from a re-analysis of the deposited data

How the results depend on the processing

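Of the 19 alternatives, all kept the direction of Atf3, Atf4, Atf5, Atf6, Chac1, Ddit3, Derl3 and Ero1b. Several of them could not change it. A variance trend and the replicate block leave the estimate as it is, and slide as a fixed block shares its estimate with the first slide alone. The changed filters and the authors' values also returned the main estimate, as for Derl3 (2.862). Asns ran from -0.648 to 1.675 when single arrays were left out, negative only in the absence of corn oil replicate 1. Hspa5 turned to 0.004 under normexp and to 0.195 with slide as a fixed block, which by design gives the same estimate as the first slide alone. It ran from -0.179 to 0.079 with single arrays left out, and was positive where corn oil replicate 3 (0.079) or CCl4 replicate 2 (0.028) was absent. Of the 10 genes 1 passed, but 2 under normexp (Derl3 and Ero1b) and 0 with slide as a fixed block, within the first slide or with the replicate number as a block, where Derl3 was at 2.86 with adjusted p = 0.0705. Leaving out 1 array gave 0 to 2. Over all genes 76 passed, with 217 under normexp, 139 with the filter on all 6 arrays, 156 with a variance trend, 128 with array weights, 4 with slide as a fixed block, 0 within the first slide (1598 at an unadjusted p below 0.05 by limma), 10 with the replicate block and 2 to 241 leaving out 1 array. Over all probes 138 passed, with 254 under a variance trend, 62 with no filter, 13 with slide as a fixed block, 0 within the first slide (4569 unadjusted), 0 with the replicate block (6614 unadjusted) and 2 to 256 leaving out 1 array. The cause of these shifts was not tested. Same-numbered deviations correlated at -0.052, 0.162 and 0.019, and differently numbered ones at -0.181 to 0.147. With 3 arrays per group, these values cannot show whether the replicate numbers pair the animals. The median of all genes was -0.035 under quantile normalization and -0.078 under median scaling. The first slide holds 1 CCl4 array, so values within it set 1 animal against 3.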
